A study of Equus caballus with 24 samples.

Results

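The pituitary of the Debao pony (DP), a small Chinese breed, was compared between the juvenile and the adult stage. The comparison takes the 3 libraries labelled juvenile DP pituitary (DPPJ) and the 3 labelled adult DP pituitary (DPPA), which are 6 of the 24 libraries of the series, and all genes counted in them. The other libraries come from DP long bone and from the pituitary and long bone of Mongolian horses (MHs), a larger breed. Per the methods of the study, the tissues were collected at slaughter from healthy females of both breeds, with 3 animals per group, juveniles under 3 years of age and adults over 3 years, and no treatment is described. The labels give no link between a library and an animal, so p-values measure the spread between these libraries.

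The anterior lobe of the pituitary holds endocrine cells that make growth hormone (GH), prolactin (PRL), the gonadotropins, thyroid-stimulating hormone and proopiomelanocortin. The posterior lobe is a neural tissue of axons from the hypothalamus and of pituicytes, which are glia. GH drives growth of the young animal through IGF1, and PRL acts on the mammary gland and, in seasonal mammals, follows day length.

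Between 18269442 and 23573036 reads per library were counted on genes. Levels are given as CPM, the reads of a gene scaled to a common library size after TMM normalization, which are comparable between libraries but not between genes of different length. DPPA replicate 1 stood apart from the other libraries. The summed level of the 7 anterior pituitary hormone genes was 66.3 CPM in it, against 14119 and 26871 CPM in the other DPPA libraries and 32490 to 41201 CPM in DPPJ. It also had the highest sums of the lists of glial, myelin and neuronal markers, though not the highest level of every member. In the pituicyte and astrocyte list, RAX was at 3.65 CPM in it and at 16.6 CPM in DPPA replicate 3, and LHX2 at 19.7 and 23.4 CPM. The astrocyte filament gene GFAP was at 7333 CPM in DPPA replicate 1, at 2386 CPM in DPPJ replicate 2 and at 6.39 to 120 CPM in the other libraries. AVP, the vasopressin gene of hypothalamic neurons, was at 1170 and 224 CPM in the same pair and at 0.13 to 3.87 CPM elsewhere. The correlation of log2 CPM across 14533 genes, which are not independent replicates, was 0.835 to 0.897 between DPPA replicate 1 and each other library and 0.945 to 0.975 between all other pairs. The label of DPPA replicate 1 says pituitary, and the pituitary markers POU1F1 (0.103 CPM, against 107 to 186 CPM elsewhere) and TSHB (0 reads) were at or near 0 in it. The lobes sampled are not named in the labels or methods. Results are therefore given with and without this library. In whole tissue, fewer cells of a type and less RNA per cell cannot be told apart.

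**Figure D1:**
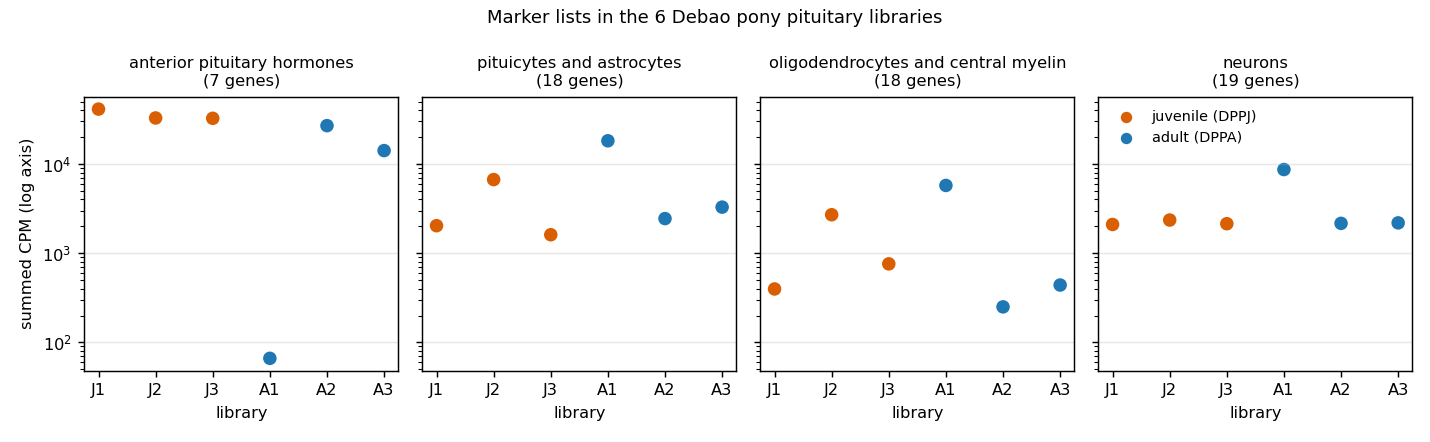
Summed CPM (log axis) of 4 marker lists in each of the 3 juvenile (J1 to J3) and 3 adult (A1 to A3) DP pituitary libraries, 1 point per library. DPPA replicate 1 had 66.3 CPM of hormone transcripts and the highest sums of the other 3 lists, and DPPJ replicate 2 had the next highest sums of the glial and myelin lists.

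The hormone genes were the first question, since the study set out to relate pituitary output to body size. GH, PRL and FSHB were higher in all 3 juvenile libraries than in any adult library. The level of GH (ENSECAG00000009154) was 13155, 16796 and 21338 CPM in DPPJ replicates 1, 2 and 3 and 7.30, 10715 and 7425 CPM in DPPA replicates 1, 2 and 3. This is 17096 ± 4099 CPM (SD, n = 3) against 6049 ± 5485 CPM (SD, n = 3), and the log2 fold change of juvenile minus adult was 1.50 with a standard error of 1.64 (95% interval -2.43 to 5.43). The adult spread comes from replicate 1, without which the log2 fold change of GH was 0.91, still under a fold of 2. PRL (ENSECAG00000000114) was at 15418, 10367 and 7447 CPM in DPPJ and at 1.49, 3046 and 1756 CPM in DPPA. Its log2 fold change was 2.79 with a standard error of 1.75 in all 6 libraries and 2.20 without DPPA replicate 1. FSHB (ENSECAG00000019116), which encodes the beta subunit of follicle-stimulating hormone, was at 358, 215 and 319 CPM in DPPJ and at 0.0514, 94.4 and 52.2 CPM in DPPA. The juvenile libraries lay above every adult library also for this gene, with a log2 fold change of 2.61 (SE 1.47) in all 6 libraries and 2.02 without DPPA replicate 1.

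The other hormone genes overlapped between the stages. CGA, the alpha subunit shared by the glycoprotein hormones, was at 5052, 2441 and 1910 CPM in DPPJ and at 49.8, 1495 and 2538 CPM in DPPA. LHB, the beta subunit of luteinizing hormone, was at 159, 50.2 and 34.5 CPM in DPPJ and at 0.772, 58.7 and 30.8 CPM in DPPA. For both genes the juvenile and adult libraries were interleaved once DPPA replicate 1 was set aside, with log2 fold changes of 0.64 and 0.86. POMC, the precursor of adrenocorticotropin and melanocyte-stimulating hormone, ranged from 1437 to 7054 CPM in DPPJ and from 6.84 to 11460 CPM in DPPA. TSHB, the beta subunit of thyroid-stimulating hormone, was at 4.36, 10.9 and 4.62 CPM in DPPJ and at 0, 0.972 and 21.3 CPM in DPPA. The log2 fold changes of POMC (-0.27, 95% interval -4.38 to 3.84) and TSHB (-0.17, 95% interval -3.96 to 3.63) turned positive with limma and with several single libraries left out.

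A gene was called differentially expressed (DEG) when its fold change was over 2 and its unadjusted P under 0.05. None of the 7 hormone genes was a DEG in all 6 libraries, where 3.56% of all tested genes were, and 0 of 7 had an unadjusted P under 0.05 with edgeR's quasi-likelihood test, its exact test or DESeq2. With limma on log2(RPKM + 1) FSHB passed. Of the 7 genes, 3 did not overlap with the juvenile side higher, as did 11.4% of all tested genes. Without DPPA replicate 1, PRL and FSHB were DEGs and both also were with DPPJ replicate 2 left out too (log2 fold change 2.25 and 2.21).

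**Figure D2:**
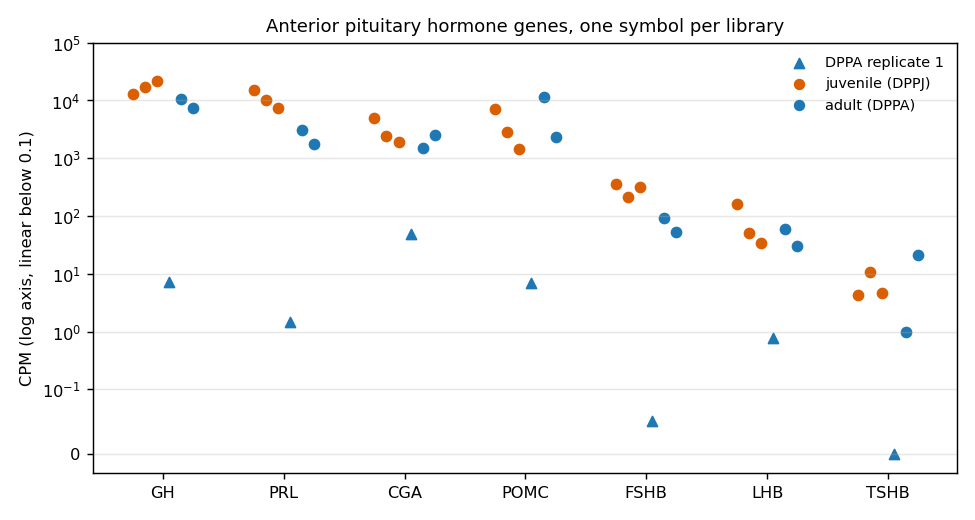
CPM of the 7 anterior pituitary hormone genes in each library (log axis, linear below 0.1), juvenile in orange and adult in blue, with DPPA replicate 1 as triangles. GH, PRL and FSHB were higher in every juvenile library than in every adult one, while the circles of CGA, POMC, LHB and TSHB overlap.

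Hormone reads were also set against the GH reads of the same library, a ratio chosen after the values were seen. PRL reads came to 117%, 61.7% and 34.9% of GH reads in DPPJ and to 20.4%, 28.4% and 23.7% in DPPA. FSHB reads came to 2.72%, 1.28% and 1.50% of GH reads in DPPJ and to 0.704%, 0.881% and 0.703% in DPPA. Both ratios were higher in every juvenile library, and the lowest juvenile ratio of PRL, in DPPJ replicate 3, was nearer to DPPA replicate 2 than to the other DPPJ libraries. The DPPA replicate 1 ratios rest on 142 reads of GH, 29 of PRL and 1 of FSHB. POMC reads ranged from 6.74% to 53.6% of GH reads in DPPJ and from 30.9% to 107% in DPPA, with overlap. With 3 libraries against 3, an exact permutation test cannot give a two-sided p under 0.1. Per length, as RPKM of the authors, the order of the hormone genes differed between libraries. In DPPJ replicate 1 POMC (15134 RPKM), PRL (13611) and GH (13174) were close together, whereas in DPPJ replicate 3 GH (22757) was above PRL (7002), CGA (4186) and POMC (3284).

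Receptors and transcription factors of the endocrine cells gave no DEG. Of 11 tested genes in the list of receptors of hypothalamic signals, 0 were DEGs, beside 3.56% of all tested genes. The list also holds PRLR, ESR1 and THRB, receptors of prolactin, oestrogen and thyroid hormone. Its median log2 fold change was 0.30 (0.27 without DPPA replicate 1), beside -0.033 over all tested genes. GHRHR, the receptor through which hypothalamic GHRH stimulates GH cells, was at 120, 278 and 191 CPM in DPPJ and at 0.566, 155 and 53.6 CPM in DPPA. The oestrogen receptor ESR1, the ghrelin receptor GHSR and the gonadotropin-releasing hormone receptor GNRHR were higher in every juvenile library. Their log2 fold changes were 0.91, 1.10 and 1.40, and 0.49, 0.57 and 0.82 without DPPA replicate 1. None had an unadjusted P under 0.05 in all 6 libraries with edgeR's quasi-likelihood test. ADCYAP1R1 of the same list was lower in every juvenile library (-0.86, and -0.46 without DPPA replicate 1). Thus 3 of the 11 did not overlap on the higher side and 1 on the lower. Over all tested genes these shares were 11.4% and 10.4%. Of 17 pituitary transcription factors, 0 were DEGs and 0 did not overlap, beside 3.56% and 21.8% of all tested genes. PITX1, a factor of the whole anterior lobe, was at 220, 189 and 266 CPM in DPPJ and at 26.4, 214 and 312 CPM in DPPA. POU1F1, the factor of GH, PRL and thyrotrope cells, was at 170, 142 and 184 CPM in DPPJ and at 0.103, 186 and 107 CPM in DPPA. The median log2 fold change of this list was 0.05 in all 6 libraries and -0.53 without DPPA replicate 1.

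Of 15 granins and prohormone processing genes, 2 were DEGs, both lower in juveniles, beside 2.64% of all tested genes called lower and 0.929% called higher. PAM, which amidates peptide hormones, was at 488, 339 and 255 CPM in DPPJ and at 972, 798 and 451 CPM in DPPA, with overlap (log2 fold change -1.04, SE 0.36). PAM was no DEG without DPPA replicate 1 (-0.79, under a fold of 2). PCSK1, a protease that cleaves prohormones, was at 172, 139 and 55.9 CPM in DPPJ and at 176, 337 and 264 CPM in DPPA. The juveniles were lower throughout but by little from DPPA replicate 1 (-1.08, SE 0.44). PCSK1 was a DEG also without that library, at -1.30, but in only 2 of the 6 fits with 1 library left out. CHGA, a granin of secretory granules, was at 4586, 5920 and 4501 CPM in DPPJ and at 3359, 10635 and 19542 CPM in DPPA. It became a DEG without DPPA replicate 1 (log2 fold change -1.59, against -1.16 in all 6 libraries). The list's median was -0.25 and -0.15 without DPPA replicate 1. Of 11 stem and folliculostellate cell genes, 0 were DEGs. Their median was -0.31, and SOX2, a stem cell factor, was at 12.2, 22.7 and 5.48 CPM in DPPJ and 52.5, 17.8 and 30.9 CPM in DPPA.

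Over all 14533 tested genes, 518 (3.56%) were DEGs. Of these, 135 (0.929%) were higher and 383 (2.64%) lower in juveniles. Their median log2 fold changes were 1.35 and -1.46. This balance depends on the scaling. Without TMM, with library size alone, 240 were higher and 228 lower. With limma, 130 were higher and 107 lower on log2(RPKM + 1), and 239 were higher and 198 lower on log2(RPKM + 0.1). The median log2 fold change of all genes was 0.13 without TMM and 0.087 and 0.11 with limma, and changes should be read against it. No gene had an adjusted p under 0.05 in edgeR's quasi-likelihood test (lowest 0.419), and 1703 genes (11.7%) had an unadjusted P under 0.05. DESeq2 gave 234 genes with an adjusted p under 0.05, edgeR's exact test 10 and limma 0 on either scale. No overlap between the stages was found for 3173 genes (21.8%), among them 124 of the 135 higher and 285 of the 383 lower DEGs. When each of the 6 libraries was left out in turn, 106 genes (0.729%) stayed DEGs every time, 35 higher and 71 lower.

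**Figure D3:**
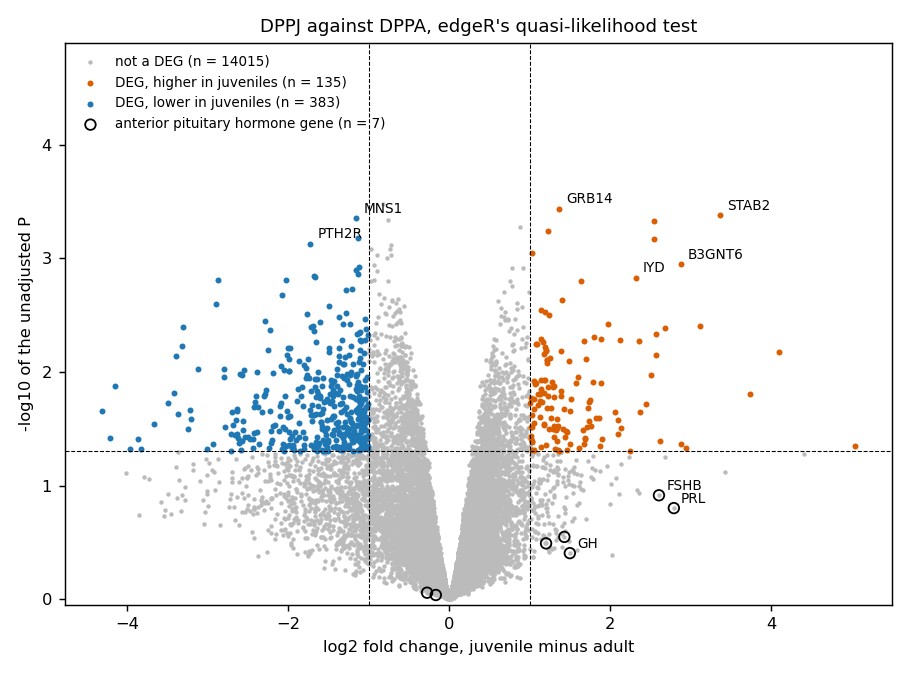
Log2 fold change (juvenile minus adult) of each of 14533 tested genes against -log10 of its unadjusted P from edgeR's quasi-likelihood test. Dashed lines mark a P of 0.05 and a fold of 2. The 135 higher and 383 lower DEGs are coloured, and the 7 hormone genes, circled, lie below the P line.

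Of the DEGs higher in juveniles that had no overlap between stages and kept their direction with each library left out, the 12 with the lowest P are given here. The separation of their libraries was thus set by the choice and is a description. GRB14, an adaptor that binds the insulin receptor and dampens its signal, was at 84.4, 58.8 and 81.1 CPM in DPPJ and at 24.5, 29.1 and 33.5 CPM in DPPA. Its log2 fold change was 1.36 with a standard error of 0.20 (adjusted p = 0.419, edgeR's quasi-likelihood test). STAB2, a scavenger receptor of sinusoidal endothelium, was at 5.89, 6.21 and 14.1 CPM in DPPJ and at 0.514, 1.06 and 0.955 CPM in DPPA, a fold of 10.3. IYD, the deiodinase that recycles iodide from iodotyrosines, was at 10.6, 8.18 and 14.5 CPM in DPPJ and at 1.39, 1.76 and 3.52 CPM in DPPA. These 3 genes stayed DEGs with each library left out. B3GNT6, a glycosyltransferase of O-glycan cores, was at 7.80, 8.33 and 18.1 CPM against 1.08, 2.45 and 1.11 CPM (log2 fold change 2.87, SE 0.52). CREB3L1, a transcription factor held in the endoplasmic reticulum membrane, was at 24.2, 28.1 and 22.0 CPM against 5.20, 11.4 and 7.39 CPM. The proteasome subunit PSMB10 (log2 fold change 1.19) and the proteasome assembly factor PSMG3 (1.14) were also among them, as were C12orf57 (1.22), the kinase STK32C (1.03), LRRC14 (1.40), the mTOR complex component PRR5 (1.24) and the replication origin protein ORC1 (1.97). All 12 were DEGs without DPPA replicate 1 except STK32C, which then changed by 0.89.

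The DEGs of highest level were in part other genes. SLC35C2, of a family of nucleotide sugar transporters, was at 92.2, 80.5 and 179 CPM in DPPJ and at 24.1, 53.0 and 32.7 CPM in DPPA (log2 fold change 1.68, SE 0.41). ALB, which encodes serum albumin, owed its call to 1 library. It was at 3.0, 449 and 2.38 CPM in DPPJ and at 4.37, 4.77 and 4.67 CPM in DPPA, and without DPPJ replicate 2 its log2 fold change was -0.77. The plasma apolipoprotein gene APOA1 was also highest in DPPJ replicate 2, at 56.6, 140 and 33.3 CPM in DPPJ and 13.8, 17.4 and 38.9 CPM in DPPA, and the stages overlapped.

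The 12 genes lower in juveniles were chosen in the same way, so that the adult libraries were above the juvenile ones by the choice. MNS1, a structural protein of sperm and cilia, was at 95.6, 108 and 84.7 CPM in DPPJ and at 247, 177 and 220 CPM in DPPA (log2 fold change -1.16, SE 0.18, adjusted p = 0.419, edgeR's quasi-likelihood test). ERBB2IP, a scaffold that binds the receptor ERBB2, was at 120, 138 and 107 CPM in DPPJ and at 310, 216 and 273 CPM in DPPA. CALD1, the actin-binding caldesmon, was at 311, 363 and 249 CPM against 704, 744 and 560 CPM. MNS1 and ERBB2IP stayed DEGs with each of the 6 libraries left out, and CALD1 with 5 of them. PTH2R, a receptor of the parathyroid hormone receptor family, was at 1.58, 2.17 and 2.03 CPM in DPPJ and at 5.50, 6.20 and 7.44 CPM in DPPA. The zinc finger factor SALL2 was at 56.9, 60.1 and 29.8 CPM against 170, 114 and 182 CPM. IGF2BP2, which binds IGF2 mRNA, was at 1.91, 0.914 and 1.34 CPM against 5.14, 4.30 and 8.14 CPM (log2 fold change -2.08, SE 0.42). The matrix protein SMOC2 (-1.67), the GABA-B receptor partner KCTD12 (-2.02), the beta-catenin cofactor BCL9L (-1.13), FRMPD3 (-1.16), CCDC141 (-1.20) and the immune receptor CD84 (-1.28) completed the group. All 12 were DEGs without DPPA replicate 1 too, with log2 fold changes between -1.01 for ERBB2IP and -2.17 for IGF2BP2.

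**Figure D4:**
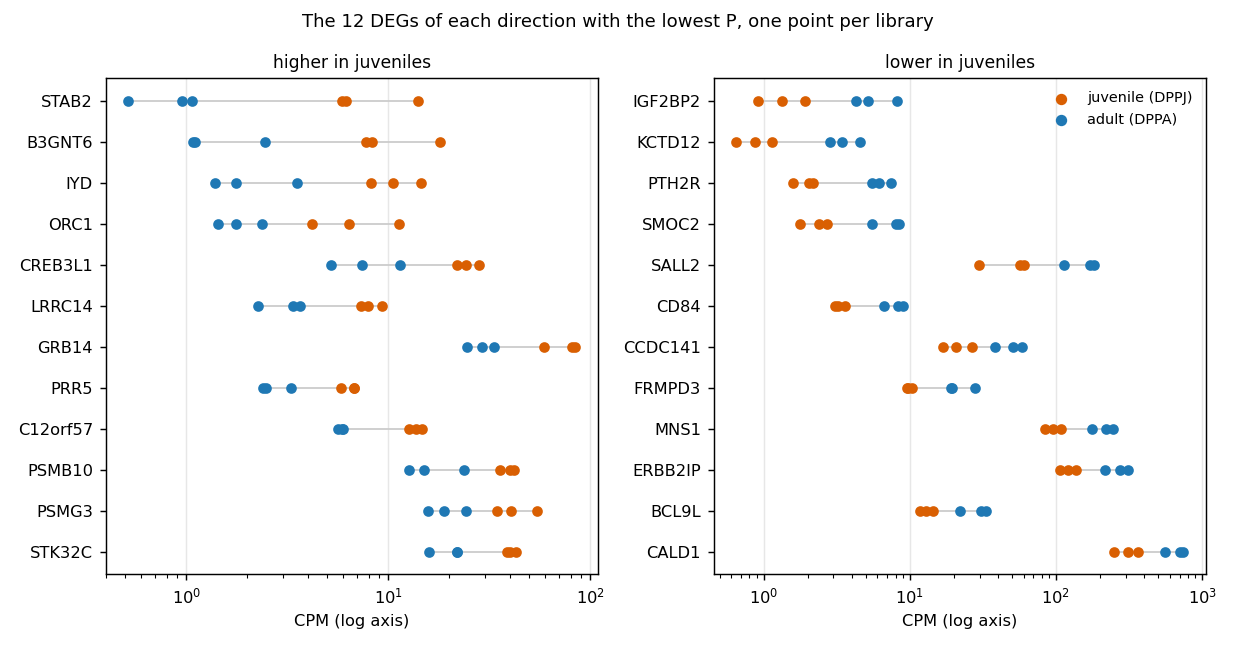
CPM (log axis) of the 12 DEGs of each direction with a symbol, no overlap between stages and the lowest P, 1 point per library, juvenile in orange and adult in blue. The colours separate on every line, as the choice of genes required.

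Mitochondrially encoded genes code for subunits of the respiratory chain. Of 13 tested, 13 had a log2 fold change below 0, also in 4 other scalings of the same 6 libraries. The 13 genes are not independent replicates. Among them 3 were DEGs, lower in juveniles, beside 2.64% of all tested genes. The median log2 fold change of the 13 was -0.72, beside -0.033 over all tested genes. It was -0.35 without DPPA replicate 1 and -0.47 with limma on either scale. MT-ND2, a subunit of complex I, was at 3993, 3424 and 3530 CPM in DPPJ and at 15703, 8368 and 6699 CPM in DPPA (log2 fold change -1.49, SE 0.38). Its lowest adult library was above its highest juvenile library, also for ND1 (-1.27) and MT-CYB (-1.09). MT-CO1, the mitochondrial gene with the most reads, overlapped between stages, at 47867, 32426 and 39211 CPM in DPPJ and 59217, 56266 and 31787 CPM in DPPA (-0.30). The summed level of the 13 genes was 69692 to 100506 CPM in DPPJ and 80754 to 168118 CPM in DPPA, highest in DPPA replicate 1. Without DPPA replicate 1, MT-ND2 stayed a DEG (-1.05), while ND1 (-0.98) and MT-CYB (-0.76) did not reach a fold of 2.

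Heat shock and endoplasmic reticulum chaperones had 2 DEGs of 23 tested, both higher in juveniles, beside 0.929% of all tested genes. CRELD2, an endoplasmic reticulum stress gene, was at 205, 188 and 169 CPM in DPPJ and at 41.0, 114 and 93.8 CPM in DPPA (log2 fold change 1.18, SE 0.36). SDF2L1, a chaperone cofactor of the same compartment, was at 18.5, 12.1 and 11.5 CPM against 3.50, 7.03 and 7.44 CPM (1.23, SE 0.37). HSPA5, the main chaperone there, was at 2233, 1578 and 1968 CPM in DPPJ and at 360, 1406 and 1199 CPM in DPPA, without passing the test (0.96, SE 0.49). All 3 were higher in every juvenile library and lowest in DPPA replicate 1. The cytosolic HSPA8 was on the other side, at 3884, 2826 and 1968 CPM in DPPJ and 4849, 4539 and 3903 CPM in DPPA (-0.62, SE 0.31). The median of the list was 0.30, and 0.19 without DPPA replicate 1, where neither CRELD2 (0.85) nor SDF2L1 (0.95) reached a fold of 2.

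The lists of neural tissue markers moved with single libraries, though not every member did. Each of these lists held 0 or 1 DEG in all 6 libraries, beside 3.56% of all tested genes. A difference from that share was not tested. The pituicyte and astrocyte list summed to 2033, 6684 and 1609 CPM in DPPJ and to 18186, 2443 and 3283 CPM in DPPA. Of its 18 genes 1 was a DEG, the glutamate transporter SLC1A2 (6.98, 8.18 and 2.81 CPM against 141, 9.44 and 14.5 CPM). The log2 fold change of SLC1A2, -3.20, became -1.0 without DPPA replicate 1, and the list's median moved from -1.58 to -0.28. RAX and LHX2 kept their change, at -2.04 and -1.69 in all 6 libraries and -2.43 and -1.67 without DPPA replicate 1. Without that library 1 gene of the list was a DEG, lower in juveniles. The neuron list had 1 DEG of 17, the neurofilament gene NEFH (-2.61, and -0.72 without DPPA replicate 1). The oligodendrocyte and central myelin list had 0 DEGs of 18, and its median turned from -1.29 to 1.40 without DPPA replicate 1. MBP, a main myelin protein, was at 85.0, 1104 and 266 CPM in DPPJ and at 1829, 56.3 and 103 CPM in DPPA. It became a DEG, higher in juveniles, without DPPA replicate 1 (2.60), as did BCAS1 (1.48), where 1.31% of all tested genes did. The Schwann cell list (6 tested, 0 DEGs) turned from -1.75 to 0.55 in the same way, and of the 8 hypothalamic genes tested 0 were DEGs (median -1.59, and -0.10 without DPPA replicate 1). Without both DPPA replicate 1 and DPPJ replicate 2, 467 genes were DEGs, 161 higher and 306 lower in juveniles. The part of the neural markers in single genes was not tested further.

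**Figure D5:**
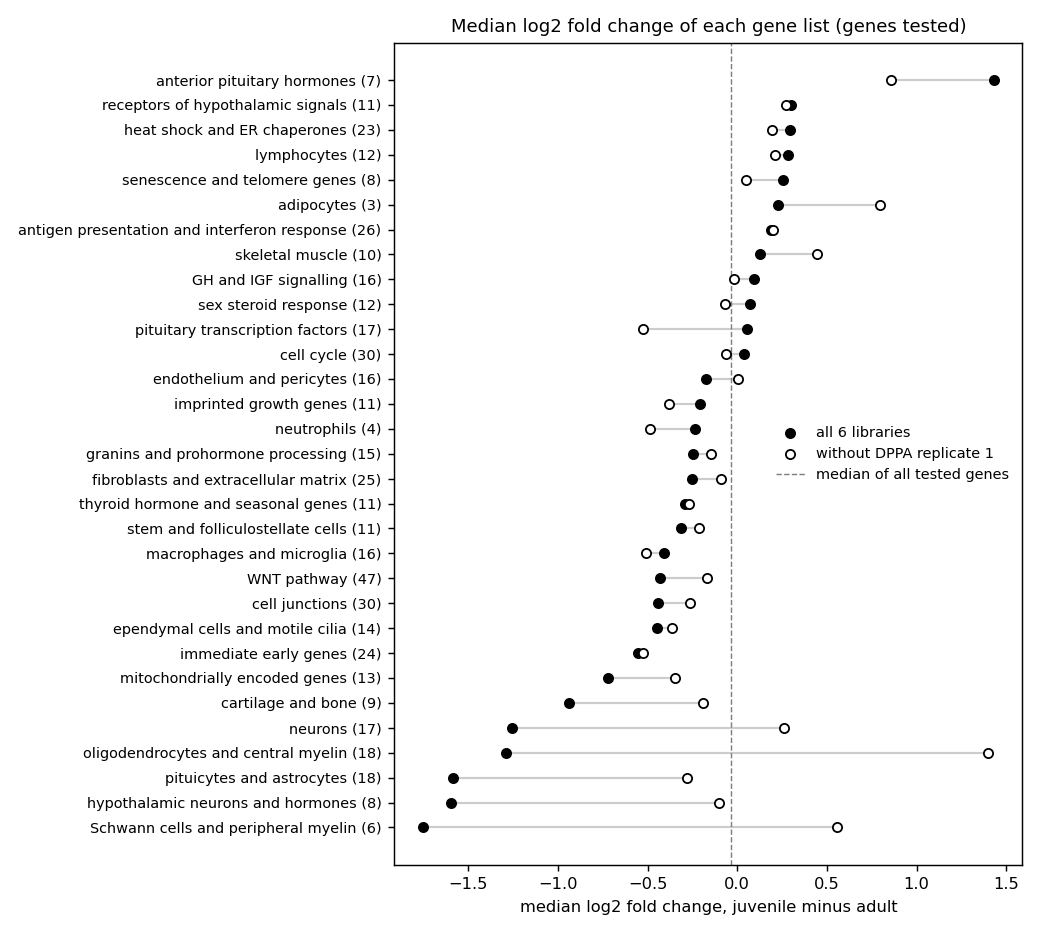
Median log2 fold change (juvenile minus adult) of each gene list, with the number of genes tested in brackets, in all 6 libraries (filled) and without DPPA replicate 1 (open), beside the median of all tested genes (dashed, -0.033). The neural and myelin lists at the bottom moved most, while the hormone list stayed highest but for the myelin list.

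The DEGs of ciliated cells, vessels and matrix were lower in juveniles, the side that held 2.64% of all tested genes against 0.929% on the other. Of 14 ependymal and motile cilia genes, DNAI2 (8.73, 16.5 and 6.87 CPM against 37.8, 17.0 and 33.9 CPM) and CCDC39 (13.2, 23.8 and 12.4 CPM against 61.0, 20.3 and 54.4 CPM) were DEGs. Both encode parts of the ciliary motor or its ruler, and both stayed DEGs without DPPA replicate 1 (log2 fold change -1.25 and -1.18). The low adult library for both was replicate 2. Among 16 endothelium and pericyte genes, the pericyte receptor PDGFRB (-1.13) and the smooth muscle myosin MYH11 (-3.67) were DEGs, and neither was without DPPA replicate 1 (-0.80 and -1.52). OGN, a small matrix proteoglycan, was the 1 DEG of 25 fibroblast and extracellular matrix genes (-1.43, and -0.84 without DPPA replicate 1). The matricellular gene SPARCL1, which is among the 5 lower DEGs of highest level, was at 2047, 1779 and 1077 CPM in DPPJ and at 6727, 3612 and 2874 CPM in DPPA. Its log2 fold change was -0.99 without DPPA replicate 1, just under a fold of 2.

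Of the immune lists, 1 held DEGs. Of 16 macrophage and microglia genes, TREM2 (2.35, 2.17 and 1.08 CPM against 4.68, 4.12 and 3.67 CPM) and TMEM119 (1.64, 2.65 and 1.43 CPM against 6.43, 3.10 and 3.67 CPM), both microglial surface proteins, were DEGs lower in juveniles, beside 2.64% of all tested genes. In the list 5 genes did not overlap on this side, where 10.4% of all genes did so. Without DPPA replicate 1 TREM2 stayed a DEG (-1.07), TMEM119 did not (-0.83) and the median of the list moved from -0.41 to -0.51. The lists of lymphocytes (12 tested, median 0.28), antigen presentation and interferon response (26 tested, median 0.19) and neutrophils (4 tested, median -0.24) held 0 DEGs. None of the 6 blood and erythroid genes had enough reads to be tested.

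The growth and endocrine response lists held 0 to 2 DEGs each, beside 3.56% of all tested genes. Of 16 genes of GH and IGF signalling 0 were DEGs and the median was 0.09. GHR, the receptor of GH, was at 29.3, 26.5 and 34.1 CPM in DPPJ and at 21.2, 33.7 and 40.6 CPM in DPPA, with overlap. The list of imprinted growth genes, with 11 tested, held 2 DEGs. These were IGF2BP2, listed for its binding of IGF2 mRNA, and the imprinted placental gene PEG10 (89.0, 55.9 and 45.8 CPM against 202, 117 and 103 CPM). SLCO1C1, a thyroxine transporter, was the 1 DEG of 11 thyroid hormone and seasonal genes, at 14.6, 4.91 and 0.475 CPM in DPPJ and at 45.8, 22.4 and 50.3 CPM in DPPA. FST, the activin-binding follistatin, was the 1 DEG of 12 genes of the sex steroid list, at 3.76, 4.33 and 3.33 CPM against 4.63, 7.68 and 11.9 CPM. The adult libraries were higher throughout for PEG10, SLCO1C1 and FST. SLCO1C1 (-2.46) and FST (-1.36) stayed DEGs without DPPA replicate 1, while PEG10 (-0.79) did not. Over the 6 fits with 1 library left out, SLCO1C1 was a DEG in 4, PEG10 in 3 and FST in 1. Of 24 immediate early genes, NR4A3 was a DEG (1.64, 1.15 and 1.77 CPM against 1.85, 6.76 and 4.98 CPM), and its relative NR4A2 became one without DPPA replicate 1 (-1.18). The list's median was -0.55. Of 30 cell cycle genes the kinetochore gene CENPF was a DEG (-1.01) but not without DPPA replicate 1, where its P was above 0.05, and of 8 senescence and telomere genes 0 were.

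The pathways that the study followed, WNT signalling and cell junctions, were also examined. Their DEGs were lower in juveniles, the side with 2.64% of all tested genes against 0.929% on the other. Of 47 WNT genes, the secreted antagonist FRZB (8.45, 5.97 and 4.02 CPM against 10.7, 11.8 and 16.6 CPM), the beta-catenin destruction scaffold APC (151, 124 and 119 CPM against 432, 164 and 210 CPM) and the R-spondin receptor LGR5 (7.36, 3.71 and 8.33 CPM against 8.28, 15.5 and 20.2 CPM) were DEGs. FRZB and APC did not overlap between stages and LGR5 did. Of the 47, 8 had a log2 fold change above 0, or 13 without TMM. The list's median was -0.43, and -0.17 without DPPA replicate 1. Over all tested genes the medians were -0.033 and 0.022. Without DPPA replicate 1 the change of APC was -0.51, while FRZB (-1.21) and LGR5 (-1.47) stayed DEGs. Over the 6 fits with 1 library left out, FRZB was a DEG in 3, and APC and LGR5 in 2 each. Of 30 junction genes, CDH11, a cadherin of mesenchymal cells (20.1, 19.7 and 10.9 CPM against 75.9, 39.5 and 39.2 CPM), and TJP3, a tight junction scaffold (1.36, 2.12 and 0.993 CPM against 3.39, 3.79 and 4.12 CPM), were DEGs with each library left out. PKP2, a desmosome protein, was a DEG without DPPA replicate 1 (-1.21).

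Of the muscle, bone and fat genes, 7 were DEGs in all 6 libraries, beside 3.56% of all tested genes (0.929% higher and 2.64% lower). Only 1 of these, FABP4, was also a DEG without DPPA replicate 1. Of 10 skeletal muscle genes TNNC2 was higher (log2 fold change 1.68) and TNNT1 (-1.02) and NEB (-1.87) were lower. The call of TNNC2 rests on few reads, 38, 12 and 21 in DPPJ and 6, 5 and 11 in DPPA. Of 9 cartilage and bone genes CTSK (1.15) was higher and RUNX2 (-1.44) lower, and of 3 adipocyte genes FABP4 (2.61) was higher and LPL (-1.17) lower. Of the other 6, TNNT1 (-0.76), CTSK (0.77) and RUNX2 (-0.76) were under a fold of 2 without that library, and TNNC2 (1.58), NEB (-1.33) and LPL (-1.03) had a P above 0.05. FABP4 was at 12.1 CPM in DPPJ replicate 3 and at 0.555 to 1.68 CPM in the other libraries, and without DPPJ replicate 3 its log2 fold change was 0.69 and it was no DEG. Over the 31 lists with a tested gene, the sign of the median was the same in 4 other scalings for 28. The exceptions were imprinted growth genes (0.26 with limma), oligodendrocytes (0.07 with limma on log2(RPKM + 0.1)) and stem and folliculostellate cells (0.03 on the same scale).

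Without DPPA replicate 1, 3 juvenile libraries stood against 2 adult ones. Then 436 of 14713 genes (2.96%) were DEGs, 193 (1.31%) higher and 243 (1.65%) lower in juveniles, and 237 of them were among the 518. Of the 135 higher DEGs 135 kept their direction and 73 stayed DEGs, and of the 383 lower ones 379 kept their direction and 164 stayed DEGs. The share of DEGs that were higher in juveniles was 44.3%, against 26.1% with all 6 libraries.

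The fold change also moved with gene length. With the tested genes split by length into 10 bins of equal size, the median log2 fold change was 0.13 in the shortest bin (61 to 616 bases) and -0.19 in the longest (3692 bases and over). DEGs higher in juveniles had a median length of 1071 bases and lower ones 1845 bases, beside 1525 bases for all tested genes. Without DPPA replicate 1 the medians were 0.16 and -0.091. The difference between longest and shortest genes was -0.207, -0.147 and -0.0778 in DPPJ and 0.234, -0.00205 and 0.121 in DPPA, on the log2 scale of deviations from the mean of the 6 libraries. An offset that removes this trend left 507 DEGs, 119 higher and 388 lower. The part of gene length in single genes was not tested.

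The stage effect was set against that of MHs in a fit of all 12 pituitary libraries. Of 15200 genes, 2382 (15.7%) had an unadjusted P under 0.05 and an interaction of over 1 on the log2 scale, 1034 (6.8%) positive and 1348 (8.87%) negative. None had an adjusted p under 0.05 in edgeR's quasi-likelihood test (lowest 0.106), and 3094 had an unadjusted P under 0.05. The log2 fold change of BCL9L was -1.13 in DPs and 1.03 in MHs (interaction -2.15, SE 0.38), and that of ZBTB4, a zinc finger repressor, was -0.82 in DPs and 0.42 in MHs (interaction -1.25, SE 0.19). GH was at 0, 3.73 and 0.139 CPM in the 3 juvenile MH libraries and at 0.370, 5778 and 12604 CPM in the adult ones, so the 3 juvenile and 1 of the adult MH libraries were at most at 3.73 CPM, below DPPA replicate 1. Breed, stage and the make-up of these pieces cannot be told apart in this interaction. Of the 135 higher DEGs of DPs, 114 were tested in MHs, where 1 was a DEG in the same direction and 9 in the opposite one, while 4.5% of MH genes were DEGs higher and 3.24% lower in juveniles. Of the 383 lower ones, 370 were tested, 2 were DEGs in the same direction and 49 in the opposite one.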

How the data were processed

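RNA of pituitary tissue was depleted of ribosomal RNA and sequenced from directional libraries. The authors trimmed short reads, mapped them to the horse genome EquCab 3.0 and deposited the reads per gene as raw counts, without normalization. Their processing notes name bcl2fastq, TopHat2 and edgeR, whereas the methods of the study name Salmon, run against cDNA sequences to give TPM. Which of these produced the deposited tables, and the annotation version, are not given in the sources used here. The authors also deposited RPKM, which are scaled by gene length and library size. The reads table holds 24232 genes, under Ensembl identifiers. Of the 14533 tested, 13044 have a symbol, and 6 list entries were matched through the gene descriptions.

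DPPJ and DPPA were compared on the counts with edgeR 4.0.16 in R 4.3.3 (glmQLFit and glmQLFTest, TMM, filterByExpr with a minimum count of 10), with Benjamini-Hochberg adjustment over all tested genes. Log2 fold changes are juvenile minus adult with standard errors. The scripts were tested on simulated data. Alternatives were library size alone, DESeq2 size factors, no filter, edgeR's exact test, DESeq2 1.42.0, limma 3.58.1 on log2(RPKM + 1) and log2(RPKM + 0.1), a fit of all 12 pituitary libraries, a replicate block and each library left out. Leaving out DPPA replicate 1 and DPPJ replicate 2 together, the offset for gene length and the ratios to GH were added after seeing the data. The interaction of stage and breed used the same test in 12 libraries.

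Named genes are the 12 DEGs per direction with a symbol, the lowest P, no overlap and a kept direction with each library left out, the DEGs in 32 gene lists (at most 6 per list), the hormone genes, the 5 DEGs per direction with the highest CPM, and the 5 lowest P per direction of the interaction. Genes outside this rule were picked for their role or after their values were seen. The members and lists were chosen with earlier results of these data known. Precision is set by 3 libraries per group and by 18269442 to 23573036 reads per library.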

Additional observations from a re-analysis of the deposited data

Results flagged for a closer look

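For the hormone genes the interaction of stage and breed had an unadjusted P under 0.05 in edgeR's quasi-likelihood test. No adjusted p was under 0.05 (lowest over all genes 0.106). Breed, stage and the make-up of the pieces cannot be told apart in these interactions. The interaction, on the log2 scale and as the DP minus the MH effect, was 13.77 for GH, 16.52 for PRL, 14.46 for FSHB, 13.03 for CGA, 11.70 for POMC, 10.67 for TSHB and 4.6 for LHB. In the 3 juvenile MH libraries TSHB had 0 reads and FSHB was at most at 0.091 CPM. GH, PRL, CGA, POMC and LHB were there at most at 3.73, 1.0, 1.09, 2.91 and 4.91 CPM. The size of these fitted values thus depends on the prior count and gives no bound. An interaction was also flagged for the genes with the lowest interaction P. Of these, PRLR (6.15), MSX1 (6.32), RBP4 (6.01), ACP6 (1.89) and ETFA (1.77) were positive. VIT (-6.98), LRRC17 (-3.55), DLGAP1 (-4.98), ZBTB4 (-1.25) and FAM81A (-1.96) were negative. In the 3 juvenile MH libraries MSX1, a homeobox gene, was at 2.94, 5.09 and 3.61 CPM, against 107 to 279 CPM in the adult ones. In DPs it was at 194, 198 and 213 CPM in juveniles and at 33.0, 168 and 140 CPM in adults.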

How the results depend on the processing

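The count of 518 DEGs moved by over 1.5 times without the low-count filter (794), with limma on log2(RPKM + 1) (237), in the fit of all 12 pituitary libraries (340) and when an adjusted p under 0.05 was required (0). With 1 library left out it ranged from 259 (without DPPJ replicate 3) to 1141 (without DPPA replicate 2). The replicate numbers do not pair the samples (correlations of the deviations of same-numbered libraries -0.339, -0.511 and 0.152), and with a replicate block the DEGs numbered 349. The interaction count of 2382 became 0 with the adjusted p, 2221 with a replicate block and 1359 to 3860 with 1 library left out (without DPPA replicate 1 and MHPA replicate 1), and was within 1.5 times under the other settings. The direction of POMC (-0.27) reversed with limma on log2(RPKM + 1) (2.54) and log2(RPKM + 0.1) (2.57), with a replicate block (0.32), without DPPA replicate 2 (1.72) and without DPPJ replicate 3 (0.11), and with 1 library left out it ranged from -1.09 to 1.72. TSHB (-0.17) reversed with limma (1.35 and 2.55), with a replicate block (2.62) and without DPPA replicate 3 (3.73), DPPJ replicate 1 (0.058) or DPPJ replicate 3 (0.048), over a range of -1.30 to 3.73 with libraries left out. ALB reversed without DPPJ replicate 2 (-0.77), also with DPPA replicate 1 left out too (-0.81), and was at most 5.63 with another library left out. The cause of these shifts was not tested. The 78 named genes include the 7 hormone genes and others, such as PRLR and MSX1, that were no DEG in all 6 libraries. Calls lost with the direction kept numbered 32 with limma on log2(RPKM + 1) and 32 in the fit of 12 libraries. They numbered 21 with a replicate block and 17 without TMM. Whether depth limited the named genes was not tested, and some calls rest on few reads, as for KCTD12 (21, 18 and 15 reads in DPPJ). Counts of 3 reads or fewer, as for FSHB in DPPA replicate 1, cannot be told from 0.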
